A study of Mus musculus with 16 samples.

Results

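The voltage-gated calcium channel genes of sensory neurons were examined in the trigeminal ganglion (TG), the nodose and jugular ganglia (NG/JG), and the dorsal root ganglia (DRG) of levels L3-L5 and T10-L1. The group held 10 of the 22609 genes counted, chosen by name: the pore-forming subunit genes *Cacna1a*, *Cacna1b*, *Cacna1c*, *Cacna1d*, *Cacna1e*, *Cacna1g*, *Cacna1h* and *Cacna1i*, and the auxiliary subunit genes *Cacna2d1* and *Cacna2d2*. All 10 were found in every library's table. RNA-seq libraries had been made from neurons sorted by fluorescence, with 4 libraries for each ganglion and 16 in all. Every group had the same background: C57BL/6J mice labelled male, 8 to 12 weeks old, carrying *Pirt* cre and a Rosa26 LSL-tdTomato reporter, with no treatment, and the groups differed by label in the ganglion. Days of sorting and library preparation were not given in the sources used here. TdTomato therefore marks cells in which the *Pirt* promoter has driven Cre, only medium-to-bright cells were collected, and left and right ganglia were combined. The number of mice behind a library was not given in the sources used here, so the p-values below measure the spread between libraries, which may be partly technical.

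Calcium channels open when the membrane depolarizes and let calcium into the cell. In sensory neurons the N-type (*Cacna1b*) and P/Q-type (*Cacna1a*) channels trigger transmitter release at the terminals in the spinal cord and brainstem, the R-type channel (*Cacna1e*) adds to it, and the L-type channels (*Cacna1c*, *Cacna1d*) couple activity to gene expression. These open at strong depolarization. The T-type channels (*Cacna1g*, *Cacna1h*, *Cacna1i*) open near rest and set how easily a neuron fires. The alpha2delta subunits (*Cacna2d1*, *Cacna2d2*) carry pore-forming subunits to the membrane and bind gabapentin, a drug against neuropathic pain, and the beta subunits bind to the inner face of the high-voltage channels.

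Short coding stretches show how the genes divide into these classes. They were read in frame from the longest annotated coding transcript of each gene in GENCODE mouse release M1 on mm9, on the strand of the gene. In the pore loop of the fourth repeat, the codon that lines the selectivity filter codes for glutamate in 5 of the 8 pore-forming genes (*Cacna1a*, *Cacna1b*, *Cacna1c*, *Cacna1d* and *Cacna1e*) and for aspartate in the other 3, the T-type genes. Capitals mark this codon in the genes on which the comparisons below turn:
Cacna1b, exons 36 and 37, chr2:24490727-24492947, minus strand: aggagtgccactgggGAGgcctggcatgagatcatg
Cacna1c, exons 34 and 35, chr6:118564062-118574386, minus strand: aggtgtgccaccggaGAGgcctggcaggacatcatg
Cacna1h, exon 31, chr17:25514710-25514745, minus strand: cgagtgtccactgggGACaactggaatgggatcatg
Cacna1i, exon 31, chr15:80218912-80218947, plus strand: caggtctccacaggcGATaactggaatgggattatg
Over these 36 bases *Cacna1b* and *Cacna1c* were identical at 31 positions and *Cacna1h* and *Cacna1i* at 29, while *Cacna1b* and *Cacna1i* shared 22. In the genomic intervals of *Cacna1b* and *Cacna1c* an intron separates the coding bases.

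The site where beta subunits bind, in the loop between the first and second repeats, was found in the same 5 high-voltage genes and not in the 3 T-type genes. It is shown for *Cacna1b* and *Cacna1c*, since the beta subunit genes are compared below, with the tyrosine and tryptophan codons of the binding helix in capitals:
Cacna1b, exon 8, chr2:24575471-24575512, minus strand: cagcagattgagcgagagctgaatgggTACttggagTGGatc
Cacna1c, exon 9, chr6:118684936-118684977, minus strand: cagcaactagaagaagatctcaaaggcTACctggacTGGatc
Both alpha2delta genes hold the stretch with the 3 arginine codons needed for gabapentin binding, shown in capitals; each is split by an intron:
Cacna2d1, exons 8 and 9, chr5:15770120-15772508, plus strand: ctatatgatgtaCGCAGAAGAccatggtac
Cacna2d2, exons 8 and 9, chr9:107414666-107415388, plus strand: ctgtacgatgtcAGAAGACGAccctggtat

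Reads on genes ranged from 4735624 to 13333318 per library (median 8332661), so that a floor of 3 counts, used here as the limit of detection and covering counting error only, lay between 0.225 and 0.6335 CPM (counts scaled to the library's total of reads on genes). Several libraries stood apart. NG/JG library 4, TG library 1 and NG/JG library 2 had reads on 10132, 11527 and 11314 genes, against 12310 to 18571 in the others. In L3-L5 DRG library 4 and T10-L1 DRG library 1, 66.64% and 51.5% of uniquely aligned reads were placed on no gene feature by the counting. Whether such reads lie in introns or outside genes was not tested. All 10 sensory neuron markers (*Pirt*, *Avil*, *Rbfox3*, *Tubb3*, *Uchl1*, *Prph*, *Elavl4*, *Stmn2*, *Isl1*, *Slc17a6*) were detected in each ganglion, yet their summed level, 927.3 to 11870 CPM, was below that of 8 satellite glia markers in all 16 libraries (13970 to 65030 CPM). The labels give male mice, but *Xist* was read 1279 to 8362 times in each of the 16 libraries, and 8 genes of chromosome Y had 0 reads in all of them. In these bulk samples fewer neurons of a type and less RNA per neuron cannot be told apart.

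The calcium channel genes took up between 11 and 4419 reads per library, or 1.137 to 364.1 CPM in sum. The smallest sum was that of NG/JG library 4, in which *Cacna1b* with 6 reads was the only member above 3 counts. The largest sums were 337.3 and 364.1 CPM, in L3-L5 DRG libraries 2 and 3, and the next was 187.4 CPM, in NG/JG library 3. The same 2 L3-L5 DRG libraries also had the highest neuron marker sums, 10440 and 11870 CPM against at most 4890 CPM elsewhere, and the highest sums of 5 peptidergic nociceptor markers (4849 and 6858 CPM, against at most 2944) and of 5 nonpeptidergic ones (3366 and 2590 CPM, against at most 1238). Their sums of 5 C low-threshold mechanoreceptor markers (654.6 and 575.8 CPM) were also the highest. Those of satellite glia (20720 and 13970 CPM) and Schwann cell myelin markers (8378 and 8301 CPM) were the lowest of the 16 libraries. Their A-delta low-threshold mechanoreceptor markers (222.7 and 258.1 CPM) lay below every T10-L1 DRG and NG/JG library (at least 299.4 and 358.1 CPM). They lay above every TG library (at most 194.5 CPM). Proprioceptor and A-beta markers summed to 110.2 CPM in library 2, the lowest of the 16 libraries. Library 3 had 189.4 CPM of them, within the 123.8 to 854.3 CPM of the other ganglia. The part of these differences in the channel levels was not tested beyond the rescaling given below. All 10 members varied more between libraries of 1 ganglion than the median gene: edgeR's biological coefficient of variation was 1.113 to 2.099 for them and 1.03 in the median over 14236 genes. The members' median levels were 0.2782 to 16.71 CPM, and they were not compared with genes of like level. The part of expression level in this spread was not tested.

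**Figure D1:**
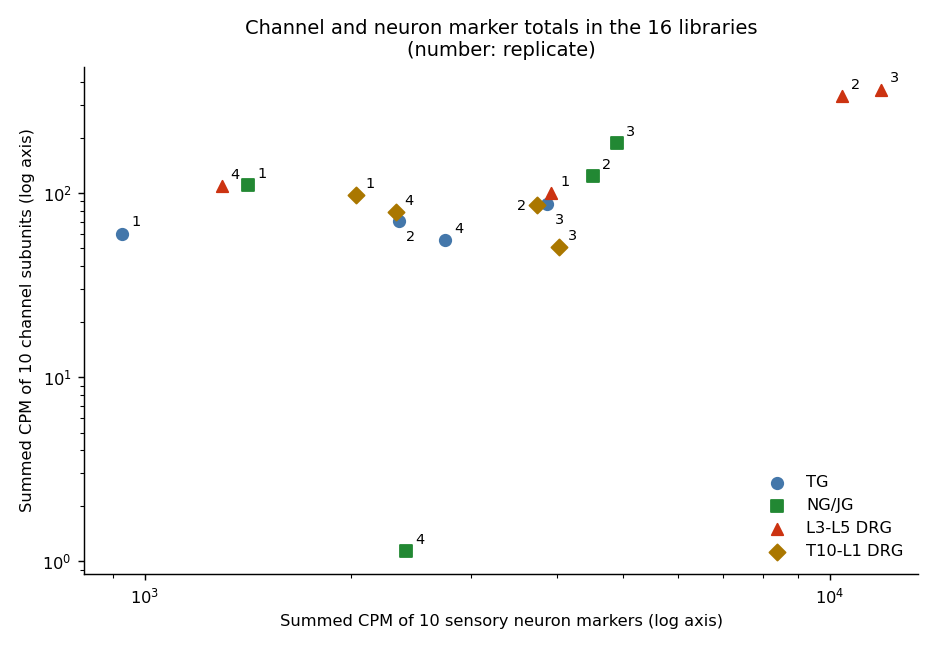
Each point is a library, with the summed CPM of 10 sensory neuron markers on the horizontal and of the 10 channel genes on the vertical axis, both logarithmic. L3-L5 DRG libraries 2 and 3 stand at the upper right, with 337.3 and 364.1 CPM of channel reads, and NG/JG library 4 at the bottom, with 1.137 CPM.

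Compared per length, as RPKM over the union of annotated exons, *Cacna2d1* had the highest mean level of the members in TG (1.615 ± 1.394, SD, n = 4), L3-L5 DRG (9.051 ± 6.894) and T10-L1 DRG (2.256 ± 1.456), and *Cacna1h* the highest in NG/JG (4.58 ± 4.964). In L3-L5 DRG *Cacna1b* came next (6.579 ± 5.724), followed by *Cacna1h* (1.868 ± 1.434), *Cacna1c* (1.705 ± 0.9597) and *Cacna1e* (1.608 ± 1.154). Neighbours in the order of a ganglion differed by less than the larger of their SDs, except *Cacna1a* above *Cacna1i* in L3-L5 DRG (1.09 and 0.6851 RPKM) and *Cacna1c* above *Cacna1i* in T10-L1 DRG (0.3045 and 0.03498 RPKM). The lowest mean levels were those of *Cacna1i* in TG (0.01732 RPKM) and T10-L1 DRG (0.03498 RPKM), and of *Cacna1d* in NG/JG (0.0483 RPKM) and L3-L5 DRG (0.2976 RPKM). Of the exon bases of *Cacna1d*, 5.542% overlap with *Chdh*, and of those of *Cacna1h* 1.614% with *Tpsg1*; how such reads were counted was not given in the sources used here.

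**Figure D2:**
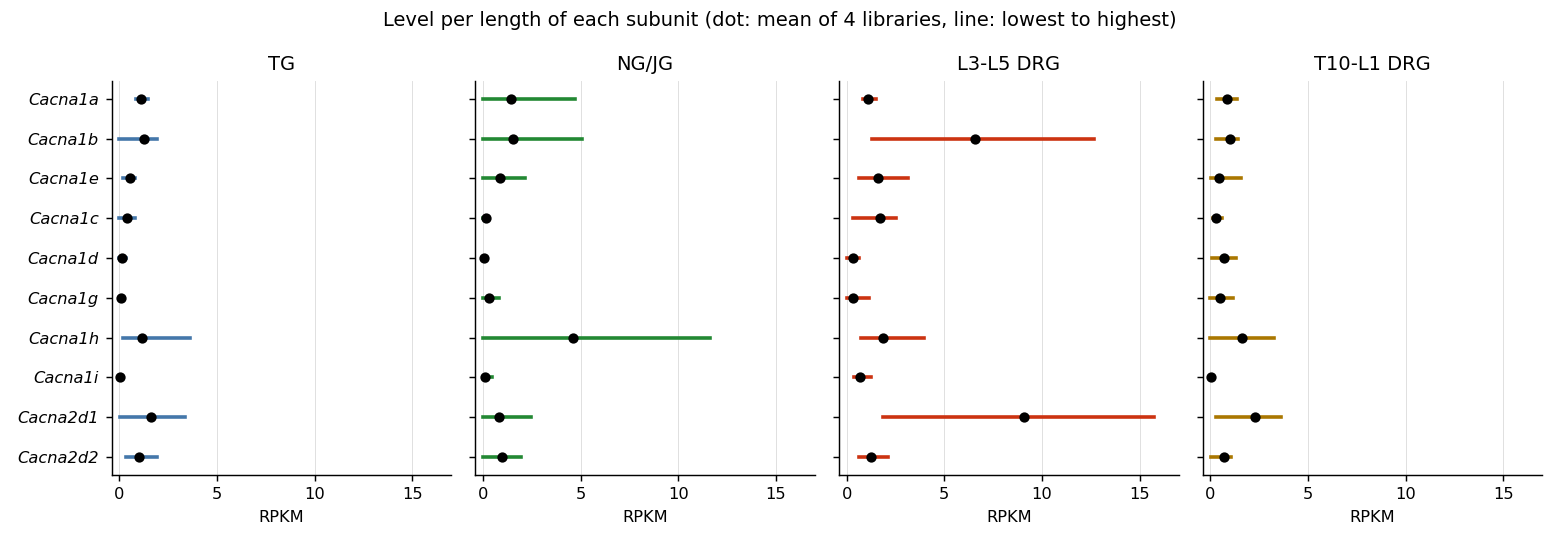
Mean RPKM (dot) and the lowest to highest of 4 libraries (line) for each channel gene in the 4 ganglia, on a linear axis. *Cacna2d1* and *Cacna1b* reach the highest means in L3-L5 DRG (9.051 and 6.579 RPKM) and *Cacna1h* in NG/JG (4.58 RPKM), with long lines in each case.

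Comparing L3-L5 with T10-L1 DRG asks whether neurons of these levels differ in their channels. The study ties the first to leg and paws and the second to colon and intestine. Neurons were sorted from whole ganglia and not by the tissue they supply. Of the 10 members, all of which passed edgeR's filter on low counts, 0 were called at an adjusted p under 0.05 by edgeR's quasi-likelihood test, as was 0% of the 13550 genes tested. At an unadjusted p under 0.05, 4 members (*Cacna1b*, *Cacna1c*, *Cacna1i* and *Cacna2d1*) had higher values in L3-L5 DRG and 0 had lower ones, beside 6.07% of all genes, 3.35% with higher and 2.72% with lower values. DESeq2 called 1 member, *Cacna1i*, and 0.5% of all genes. The median log2 fold change was 1.376 over the members and 0.0295 over all genes. Other values moved with these groups: 9 dissociation response genes summed to between 2930 and 16570 CPM (median 8551) in L3-L5 DRG, lowest in libraries 2 and 3, and between 15290 and 35900 CPM (median 23410) in T10-L1 DRG, and their part in the result was not tested. The fold change was above 0 for 8 members, and for 51.8% of all genes; the sign turned for *Cacna1g*, *Cacna1h* and *Cacna2d2* when reads on the neuron markers were used for scaling.

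*Cacna1b*, the N-type pore gene, had 20.81, 101.7, 126 and 13.09 CPM in the 4 L3-L5 DRG libraries, in the order of their numbers, and 12.53, 13.9, 2.877 and 11.48 CPM in those of T10-L1 DRG. Libraries 2 and 3 of L3-L5 DRG were far above all others, and library 4 lay within the range of T10-L1 DRG. The log2 fold change was 2.69 ± 0.81 (SE), with an unadjusted p of 0.008322 and an adjusted p of 0.7851 by edgeR. This gene was singled out for the same comparison in the study itself, from the same libraries, so its direction here is not independent evidence.

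*Cacna2d1*, the alpha2delta gene whose product is the main target of gabapentin, had 37.74, 118.5, 131.8 and 15.63 CPM in L3-L5 DRG and 2.293, 17.8, 30.25 and 25.35 CPM in T10-L1 DRG. The same libraries 2 and 3 were highest, and library 4 was below 3 of the 4 T10-L1 DRG libraries. The log2 fold change was 1.97 ± 0.84 (SE), with an unadjusted p of 0.04182 and an adjusted p of 0.7851 by edgeR. Over 15 alternative fits the unadjusted p of *Cacna2d1* was under 0.05 in 8. *Cacna2d2*, the second gabapentin-binding member, had 3.696, 9.23, 12.77 and 4.223 CPM against 6.267, 5.33, 0.0822 and 5.175 CPM, and the ranges overlapped (log2 fold change 0.82 ± 1.09, unadjusted p 0.4681).

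*Cacna1i*, a T-type pore gene, had 6.906, 12.11, 3.79 and 4.223 CPM in L3-L5 DRG, or 20 to 122 reads per library, and 0.9171, 0.3807, 0.0822 and 0 CPM in T10-L1 DRG, or 0 to 6 reads. It was the only member whose ranges did not overlap, beside 3.7% of all genes tested. Among the pairs, *Cacna1i* passed the filter on low counts only where L3-L5 DRG, its highest ganglion, was included. Its separation from near-floor counts is therefore no independent support for a difference. The size of its fold change is uncertain for the same reason. The log2 fold change was 4.30 ± 1.34 (SE), with an unadjusted p of 0.009896 and an adjusted p of 0.7851 by edgeR, while DESeq2 gave an adjusted p of 0.01698. Over the 15 alternatives the unadjusted p ran from 4.466e-05 to 0.05606, the adjusted p from 0.01698 to 1, and the call was made in 1 of them.

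*Cacna1c*, the L-type pore gene that smooth muscle also expresses, had 2.821, 22.33, 17.88 and 17.1 CPM in L3-L5 DRG and 1.223, 1.428, 5.014 and 3.075 CPM in T10-L1 DRG. Library 1 of L3-L5 DRG lay within the range of T10-L1 DRG, and the other 3 lay above it. The log2 fold change was 2.43 ± 0.87 (SE), with an unadjusted p of 0.01928 and an adjusted p of 0.7851 by edgeR. The summed level of 8 mural and smooth muscle markers was 237.9, 29.18, 90.64 and 1284 CPM in L3-L5 DRG, against 1255, 559.1, 267.9 and 896 CPM in T10-L1 DRG, so that among the L3-L5 DRG libraries with high *Cacna1c* the sum was high in library 4 and at its lowest in library 2; its part in the result was not tested.

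The remaining members did not reach an unadjusted p under 0.05 by edgeR. *Cacna1d*, the other L-type gene, had 0 to 5.657 CPM in L3-L5 DRG and 0.9518 to 12.08 CPM in T10-L1 DRG, with a log2 fold change of -1.26 ± 1.36 (SE). The R-type gene *Cacna1e* had 8.268, 39.6, 24.06 and 9.714 CPM in L3-L5 DRG and 19.87, 1.047, 0.0822 and 0.675 CPM in T10-L1 DRG, where library 1 supplied 91.68% of the summed level. Its log2 fold change was 1.93 ± 1.36 (SE), with an unadjusted p of 0.1868. Without T10-L1 DRG library 1 it became 5.05, with an unadjusted p of 0.001857 and an adjusted p of 0.9446 by edgeR. *Cacna1a*, the P/Q-type gene, stood closest to equality of the high-voltage genes, at 12.45 ± 3.671 CPM against 9.607 ± 5.168 CPM (SD, n = 4 each; log2 fold change 0.33 ± 0.62), and *Cacna1g* and *Cacna1h* had log2 fold changes of -0.72 ± 1.98 and 0.23 ± 1.23.

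Scaled to the reads on the 10 neuron markers of each library in place of TMM, the median over the members fell to 0.3253 and that over all genes to -0.1874 (log2), a shift of all genes by -0.2169. *Cacna1i* then had a log2 fold change of 3.58 ± 1.68 (SE; unadjusted p 0.05201), *Cacna1c* of 2.29 ± 1.25, *Cacna1b* of 1.21 ± 0.88 and *Cacna2d1* of 0.86 ± 0.83, and 0 members had an unadjusted p under 0.05, beside 0.576% of all genes under this scaling, where TMM gave 6.07%. Per 1000 reads on neuron markers, *Cacna2d1* had 9.62 to 12.06 reads in L3-L5 DRG, a narrower spread than the one between 15.63 and 131.8 CPM, and 1.126 to 10.9 reads in T10-L1 DRG. *Cacna1b* had 5.306 to 10.61 reads on this scale in L3-L5 DRG, against 0.714 to 6.155 reads in T10-L1 DRG. In both genes the highest T10-L1 DRG library overlapped with the lowest of L3-L5 DRG. The narrowing in L3-L5 DRG was not general. *Cacna1e* narrowed less, to 2.027 to 7.498 reads on this scale from 8.268 to 39.6 CPM. Relative to their level, others spread more: *Cacna1a* had 0.7774 to 10.11 reads (9.229 to 17.37 CPM). *Cacna1c* had 0.719 to 13.2 reads (2.821 to 22.33 CPM) and *Cacna1i* 0.3193 to 3.26 (3.79 to 12.11 CPM).

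**Figure D3:**
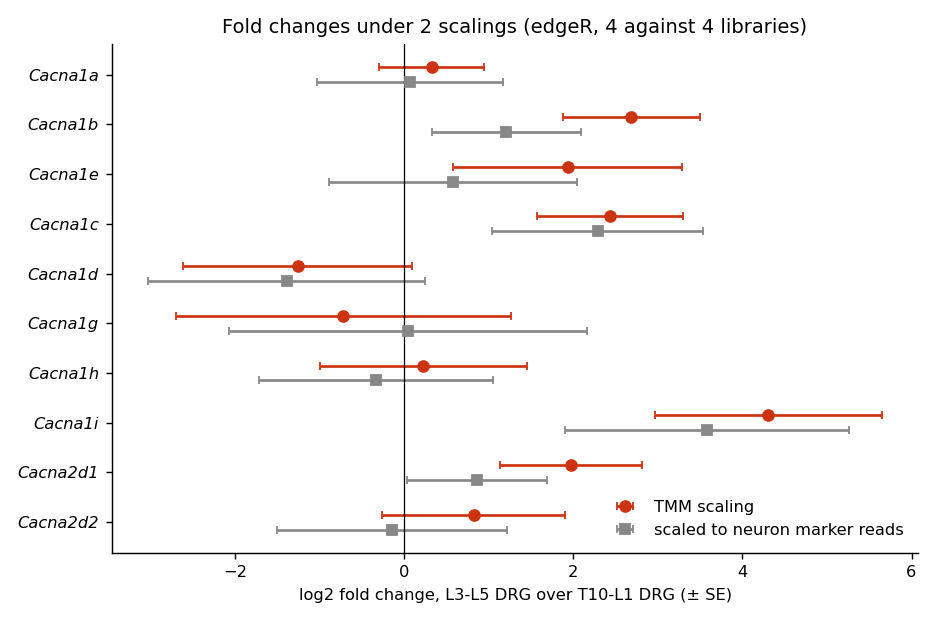
log2 fold change of each channel gene, L3-L5 DRG over T10-L1 DRG, from edgeR on 4 against 4 libraries, with a standard error derived from the F of its test. Red circles are the TMM-scaled values and grey squares the values after scaling to neuron marker reads; *Cacna1i* goes from 4.30 to 3.58 and *Cacna1b* from 2.69 to 1.21.

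The other comparisons ask how channels of cranial ganglia compare with those of the DRG, and TG with NG/JG. They share their groups with each other and with the comparison above, so they are not separate evidence, and each is given with its own values. TG and L3-L5 DRG differed most in *Cacna1i*. TG libraries 1 to 4 had 0.5078, 0, 0 and 0.1756 CPM, or 4, 0, 0 and 1 reads, all below the 3.79 to 12.11 CPM of L3-L5 DRG. Here too *Cacna1i* entered the test through its L3-L5 DRG counts, and its fold change is set against near-floor values. The log2 fold change was -4.86 ± 1.48 (SE), with an unadjusted p of 0.007533 and an adjusted p of 0.1221 by edgeR, and DESeq2 gave an adjusted p of 0.001107. Without TG library 1, which had few genes detected, edgeR's adjusted p for *Cacna1i* was 0.0335. Over the 16 alternatives, DESeq2 included, the adjusted p ran from 0.001107 with DESeq2 to 0.8891 with neuron marker scaling. Among these, the fits without TG library 1 and without L3-L5 DRG library 4 are each counted more than once, under different settings.

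In TG against L3-L5 DRG, 9 members were tested, without *Cacna1g*. By edgeR 0 were called, as was 0% of all genes, 1 had an unadjusted p under 0.05 beside 18.2% of all genes, and DESeq2 called 1 beside 11.3%. The CPM ranges did not overlap for 1 member, *Cacna1i*, and for 15.9% of all genes, so the share of separated members was near the background. *Cacna2d1* had 0.3808, 9.837, 28.35 and 15.63 CPM in TG, and its log2 fold change against L3-L5 DRG was -2.09 ± 1.04 (unadjusted p 0.06986). *Cacna1b* had 0, 19.28, 12.71 and 18.26 CPM in TG, where library 1 was the exception with 0 reads (log2 fold change -1.98 ± 1.21, unadjusted p 0.1321).

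*Cacna1h*, the T-type gene of mechanosensitive and nociceptive neurons, had 30.05, 113.9, 35.24 and 0.1034 CPM in NG/JG libraries 1 to 4, and library 2 alone held 63.53% of the summed level. In that library *Cacna1h* took 92.34% of all reads on the members, 1001 of 1084. TG had 35.16, 2.361, 5.498 and 1.756 CPM of the gene, L3-L5 DRG 7.295, 10.82, 38.56 and 16.47 CPM, and T10-L1 DRG 23.84, 31.79, 0 and 7.875 CPM, so that the range of NG/JG covered those of the other ganglia except for the single 0. The log2 fold changes of NG/JG over T10-L1 and L3-L5 DRG were 1.56 ± 1.73 and 1.35 ± 1.35, and that of TG over NG/JG was -1.84 ± 1.56, with unadjusted p of 0.3898, 0.3393 and 0.2602.

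*Cacna1c* separated NG/JG from L3-L5 DRG without overlap, at 2.782, 0.1138, 1.935 and 0 CPM against 2.821 to 22.33 CPM. It was the only member to do so, beside 7.34% of all genes, and the nearest values, 2.782 and 2.821 CPM, were nearly equal. The NG/JG values of 0.1138 and 0 CPM, or 1 and 0 reads, came from libraries 2 and 4, which had few genes detected. The log2 fold change was -3.55 ± 1.72 (SE), with an unadjusted p of 0.06651. In NG/JG *Cacna2d1* had 7.513, 0, 20.59 and 0 CPM (log2 fold change against L3-L5 DRG -3.37 ± 1.77) and *Cacna1b* 9.878, 0, 50.58 and 0.6201 CPM (-2.04 ± 1.63), with the 0 values of both in libraries with few genes detected. Of 9 members tested, without *Cacna1g*, edgeR called 0 beside 0% of all genes, 0 had an unadjusted p under 0.05 beside 6.04%, and DESeq2 called 0 beside 5.67%.

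In NG/JG against T10-L1 DRG, 9 members were tested, without *Cacna1i*. By edgeR 0 were called beside 0.0322% of all genes, 0 had an unadjusted p under 0.05 beside 5.91%, DESeq2 called 0 beside 6.3%, and ranges did not overlap for 0 beside 8.04%. The smallest unadjusted p, 0.05309, was that of *Cacna1d*, with 1.391, 0, 0.4146 and 0 CPM in NG/JG and 12.08, 0.9518, 8.22 and 4.5 CPM in T10-L1 DRG (log2 fold change -3.77 ± 1.71). In TG against T10-L1 DRG, 0 of 9 members were called by edgeR, again without *Cacna1i*, beside 5.87% of all genes, a share that rested on single libraries. The 758 genes became 3583 without TG library 1, 119 without T10-L1 DRG library 4 and 0 or 1 without any other 1 of the 8 libraries, and they became 0 with the replicate block or with neuron marker scaling. Of the members 0 had an unadjusted p under 0.05 beside 21.6%, DESeq2 called 0 beside 15.4%, and ranges did not overlap for 0 beside 18.5%. In TG against NG/JG, 7 members were tested, without *Cacna1d*, *Cacna1g* and *Cacna1i*, and edgeR called 0 beside 0.051% of all genes, with 0 members beside 10% of genes at an unadjusted p under 0.05, 0 beside 6.39% by DESeq2, and 0 beside 9.63% without overlap of ranges. The test of any difference among the 4 ganglia, on all 16 libraries, called 0 of 10 members by edgeR beside 3.01% of 14236 genes; 0 had an unadjusted p under 0.05 beside 17.5%, and DESeq2 called 0 beside 12.7%. The smallest adjusted p was that of *Cacna1i*, 0.3312 by edgeR and 0.1257 by DESeq2.

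**Figure D4:**
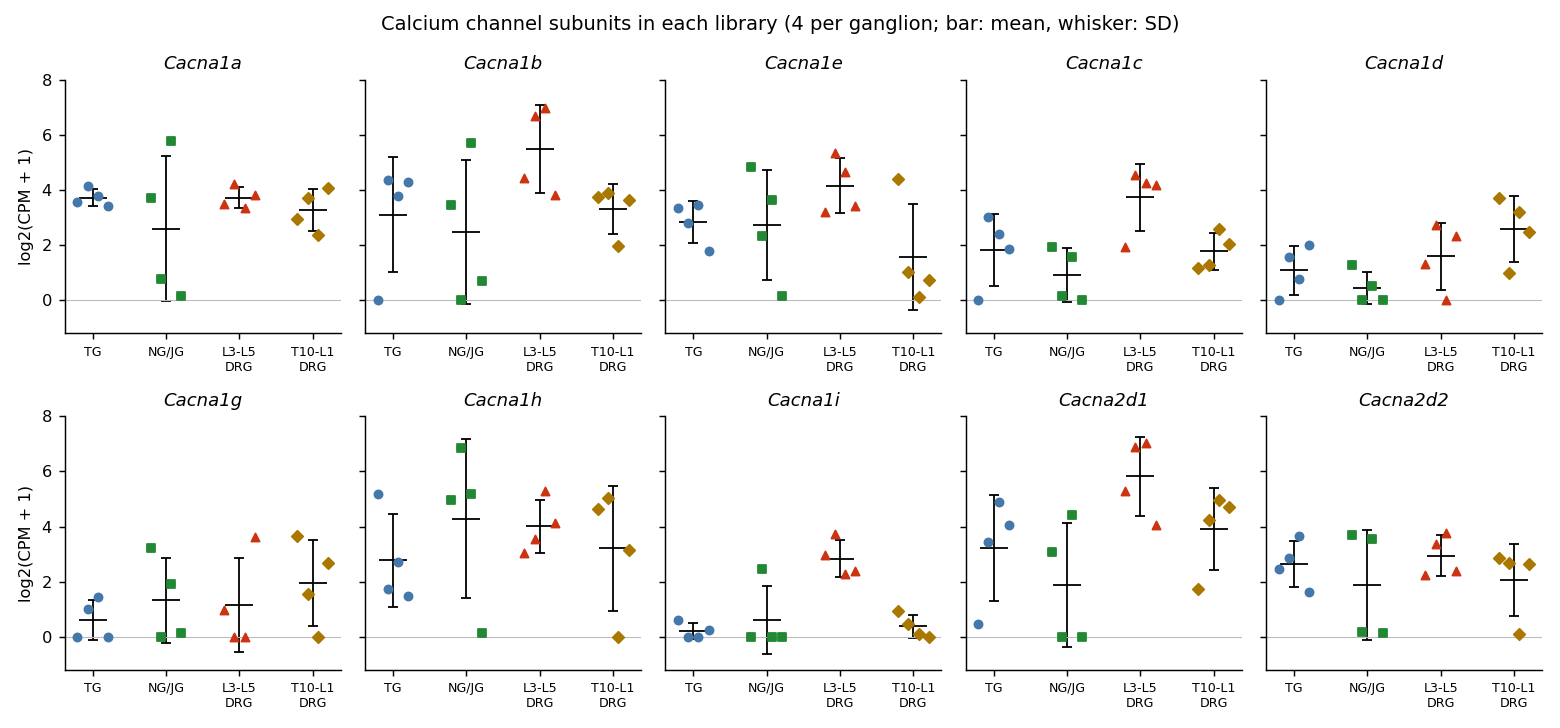
log2(CPM + 1) of each channel gene in the 16 libraries, one point per library, with the mean and SD of the 4 libraries of a ganglion in black. *Cacna1i* is near 0 outside L3-L5 DRG, apart from NG/JG library 2 with 4.552 CPM, and the highest points of *Cacna1a* and *Cacna1h* are NG/JG libraries, with 53.63 and 113.9 CPM.

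*Cacna1a* had the smallest biological coefficient of variation of the members, 1.113. It had 10.66, 16.53, 12.71 and 9.658 CPM in TG, 11.96, 0.6828, 53.63 and 0.1034 CPM in NG/JG, 10.12, 17.37, 9.229 and 13.09 CPM in L3-L5 DRG, and 6.725, 11.99, 4.11 and 15.6 CPM in T10-L1 DRG. Outside NG/JG its levels stayed between 4.11 and 17.37 CPM, and its unadjusted p for any difference was 0.9067. *Cacna1g*, by contrast, had at most 3 reads in 7 of the 16 libraries, and at most 75 in any.

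The profiles over the 16 libraries were also compared with those of all other genes, by Pearson's r of log2(CPM + 1) with TMM-scaled CPM among 14235 genes. The closest genes were *Casz1* (0.9398) and *Rhov* (0.9301) for *Cacna2d1*, *Neto2* (0.922) and *Rusc1* (0.9081) for *Cacna1b*, *Cadm3* (0.8947) and *Rab21* (0.8943) for *Cacna1a*, and *Cdh9* (0.8903) and *Tmem144* (0.8549) for *Cacna1i*. For the other members the highest r was 0.7813 to 0.8937. These are the maxima of many genes over points that share library, depth and ganglion, and serve as a description.

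The other subunits complete the channels. The list held 16 genes, of which 10 reached a mean of 1 CPM in some ganglion: *Cacna1f*, *Cacna2d3*, *Cacna2d4*, *Cacnb1*, *Cacnb3*, *Cacnb4*, *Cacng2*, *Cacng3*, *Cacng4* and *Cacng5*. By edgeR 0 of the list were called in each of the 6 pairs and in the test of any difference, where 2 of 9 tested had an unadjusted p under 0.05, beside 17.5% of all genes. DESeq2 called *Cacng3* lower in NG/JG than in L3-L5 DRG (adjusted p 0.00397), beside 5.67% of all genes, and *Cacng3* and *Cacnb3* lower in TG than in L3-L5 DRG (0.03203 and 0.0464), beside 11.3%. The beta subunit gene *Cacnb3*, whose product partners N-type channels, had 71.88, 430.9, 326.7 and 30.41 CPM in L3-L5 DRG and 31.79, 98.04, 83.11 and 69.75 CPM in T10-L1 DRG. Its highest libraries were again 2 and 3 of L3-L5 DRG, and the ranges overlapped (log2 fold change 1.60 ± 0.76, unadjusted p 0.0623). TG had 41.89, 41.51, 42.78 and 14.57 CPM, and NG/JG 2.087, 27.65, 117.5 and 21.81 CPM. Per length its mean was the highest of the 26 subunit genes in each ganglion, from 11.28 ± 4.408 RPKM in TG to 68.9 ± 62.39 RPKM in L3-L5 DRG (SD, n = 4).

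*Cacnb4* ranged from 10.85 to 114.1 CPM over the 16 libraries with means of 31.14 to 58.86 CPM, and *Cacnb1* from 0 to 40.79 CPM with means of 2.909 to 20.39 CPM. *Cacna2d3*, the alpha2delta gene next to the members, had 5.641, 8.138, 35.1 and 3.801 CPM in L3-L5 DRG and 2.598, 4.949, 2.466 and 0.675 CPM in T10-L1 DRG, with a log2 fold change of 2.33 ± 0.98 and an unadjusted p of 0.03927. It was the only gene of the list below 0.05 there, among 8 tested, beside 6.07% of all genes. *Cacng3*, of the gamma family that also serves AMPA receptors, had at most 2 reads in every TG and NG/JG library. In L3-L5 DRG it had 1.945, 0.397, 8.817 and 3.801 CPM. Against the mean floor of 3 counts per library, the L3-L5 DRG mean was at least 7.43-fold higher than TG and at least 10.1-fold higher than NG/JG. Without L3-L5 DRG library 3 these bounds were 4.07 and 5.52. They do not hold for each library, since L3-L5 DRG library 2 was below the mean floor of TG, 0.503 CPM. *Cacng5*, *Cacng2*, *Cacng4*, *Cacna1f* and *Cacna2d4* had ganglion means of at most 14.84, 3.931, 4.284, 2.006 and 1.043 CPM.

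Proteins that work beside the channels were given by 2 further lists. Of the 28 regulators and release partners, 26 were tested in L3-L5 against T10-L1 DRG; edgeR called 0, and 6 had higher and 1 lower values at an unadjusted p under 0.05, beside 3.35% and 2.72% of all genes. The median log2 fold change of this list was 0.823. In the test of any difference edgeR called 0 of 27, beside 3.01% of all genes, and DESeq2 5, beside 12.7% (*Nalcn*, *Rem1*, *Rem2*, *Syt1* and *Vamp2*, named here after their values were seen). *Snap25*, part of the complex that fuses vesicles, had 362.6, 1309, 1178 and 1258 CPM in NG/JG and 467.6, 422.5, 340.2 and 192.2 CPM in T10-L1 DRG, where only NG/JG library 1 fell within the other range (log2 fold change 1.64 ± 0.43, unadjusted p 0.003839, adjusted p 0.185 by edgeR). *Syt1*, the calcium sensor of release, had 1.65, 18.1, 34.71 and 7.375 CPM in TG, below all 4 values of L3-L5 DRG (64.83 to 289.5 CPM). Its log2 fold change was -3.12 ± 0.90, with an unadjusted p of 0.005473 and an adjusted p of 0.109 by edgeR. In this pair the ranges did not overlap for 15.9% of all genes, and 18.2% had an unadjusted p under 0.05, so such a separation is common.

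Of the 20 genes of calcium stores and pumps, *Atp2a3*, which codes for a pump that fills the endoplasmic reticulum with calcium, differed among the 4 ganglia at an adjusted p of 0.02215 by edgeR and 4.494e-08 by DESeq2, the only 1 of 19 tested that edgeR called, beside 3.01% of all genes. NG/JG had 1, 1, 0 and 0 reads, and TG 0.1269, 2.754, 3.093 and 0.5268 CPM. L3-L5 DRG had 6.128, 21.44, 44.66 and 55.96 CPM, and T10-L1 DRG 13.91, 3.331, 15.62 and 23.4 CPM. Every DRG library was thus above every library of the cranial ganglia, but the nearest values, 3.331 CPM and 3.093 CPM, were nearly equal. The share of all genes that separate in this way was not computed. Against the mean floor of 3 counts per library, L3-L5 DRG was at least 86.4-fold and T10-L1 DRG at least 37.9-fold higher than NG/JG. Without library 4, the highest of each DRG group, these bounds were 64.9 and 29.5. The call held in 17 of the 22 alternatives, with adjusted p from 4.494e-08 to 0.08494, and was lost with the replicate block (0.079), without L3-L5 DRG 4 and T10-L1 DRG 1 (0.0793) and without TG library 2, 3 or 4 (0.08016, 0.07696 and 0.08494). In no single pair did *Atp2a3* pass by edgeR; its smallest adjusted p there was 0.1146, for NG/JG against T10-L1 DRG. *Itpr3*, a calcium release channel of the same store, had 241.5, 179.9, 182.6 and 409.7 CPM in NG/JG and 192.1, 72.35, 49.93 and 167.9 CPM in L3-L5 DRG (log2 fold change 1.25 ± 0.54, unadjusted p 0.04178, adjusted p 0.7713).

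**Figure D5:**
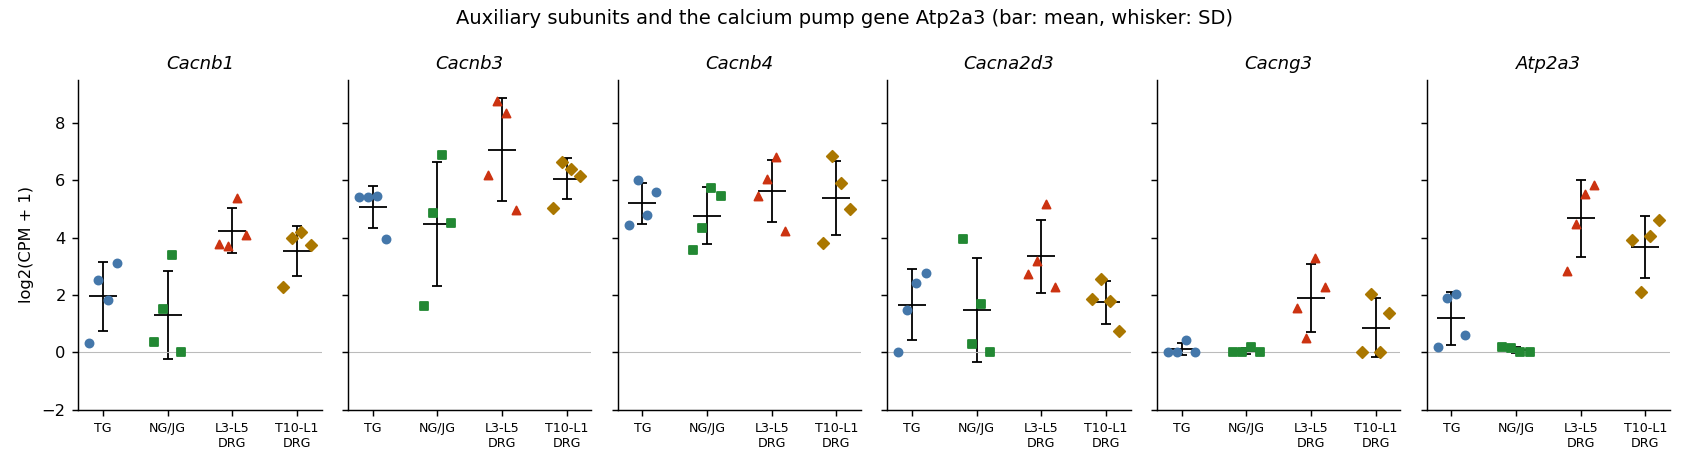
log2(CPM + 1) of 5 auxiliary subunit genes and of the calcium pump gene *Atp2a3* in the 16 libraries, with the mean and SD of the 4 libraries of a ganglion in black. All 8 DRG points of *Atp2a3* lie above all 8 points of TG and NG/JG, the nearest by little (3.331 and 3.093 CPM). The ranges of *Cacnb3* overlap between ganglia.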

How the data were processed

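RNA-seq counts of sorted Pirt/TdTomato neurons were used, 4 libraries for each of 4 ganglia. The authors made oligo dT, SMART-seq2 cDNA, sequenced 50 bp single reads, used TopHat2 for alignment to mm9 and HTSeq for counting. The deposited values are raw counts per gene symbol; annotation and strand setting were not given in the sources used here. Rows of reads not assigned to genes were left out of library sizes and tests.

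CPM was computed on reads on genes and RPKM on the exon union of GENCODE M1 (21627 of 22609 symbols had a length). Each pair of ganglia was tested on its 8 libraries, and any difference on all 16, with edgeR 4.0.16 in R 4.3.3 (TMM, filterByExpr, quasi-likelihood test, Benjamini-Hochberg over all genes). Fold changes are log2, and called means an adjusted p under 0.05. Each SE is the absolute log2 fold change divided by the square root of the test's F. It therefore restates the unadjusted p and is not a separate estimate of error. The script was first run on simulated counts that varied less between libraries than the members do here. That run therefore does not show whether a change in a member could be called. Alternatives were DESeq2 1.42.0, RLE factors, no filter, the replicate block, 1 fit of all libraries, leaving out libraries, and scaling to neuron markers. Coding stretches and figures were made in Python 3.11.15 with pandas 2.3.3, Biopython 1.88 and matplotlib 3.10.9.

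The members and lists were chosen with earlier results of these data known. Named beyond the members were subunits above a mean of 1 CPM and, of the other lists, genes with an adjusted p under 0.05 in a pair or the 2 with the smallest unadjusted p. No libraries of the same ganglion were duplicates, and libraries of different ganglia were not compared for this. Depth limits single libraries: 3 counts equal 0.225 to 0.6335 CPM.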

Additional observations from a re-analysis of the deposited data

Results flagged for a closer look

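In 18 of 80 combinations of a subunit gene and a ganglion, 1 of the 4 libraries stood apart from the other 3 by more than Dixon's critical value for the gap over the group's range, where chance gives about 1 in 20 for normally distributed values. That rate does not hold for sparse counts: in 9 of the 18 the other 3 libraries were at 0, so that any read set a library apart, and in 4 it had 3 reads or fewer. The values are CPM, and no cause was tested.

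Among the members, *Cacna1e* had 19.87 in T10-L1 DRG library 1, next to at most 1.047 in the other 3. *Cacna1g* had 11.19 in L3-L5 DRG library 4, next to 0.9727, and *Cacna1h* 35.16 in TG library 1, next to 5.498. *Cacna1i* had 4.552 in NG/JG library 2 and 0 in the other 3.

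Among the other subunits, *Cacnb3* was low in TG library 4, at 14.57 against 41.51 and above. L3-L5 DRG library 3 was high for *Cacna2d3* (35.1) and *Cacnb1* (40.79), library 2 for *Cacng5* (45.16), and library 4 for *Cacna1f* (8.024) and *Cacna2d4* (1.689). NG/JG library 3 was high for *Cacng2* (11.06), *Cacng4* (17.14) and *Cacng3* (0.1382), library 1 for *Cacna2d3* (14.47) and library 2 for *Cacna2d4* (0.1138). TG library 3 was high for *Cacna1f* (5.326) and *Cacng3* (0.3436), and T10-L1 DRG library 1 for *Cacna1f* (0.1529). The values of 0.1138, 0.1382, 0.1529 and 0.3436 stand for at most 2 reads.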

How the results depend on the processing

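For L3-L5 against T10-L1 DRG, 7 of 10 members kept 1 sign under every alternative run. *Cacna1g* turned with neuron marker scaling (0.045) and without T10-L1 DRG library 1 (0.19; leaving out 1 library gave -3.90 to 0.19), *Cacna1h* with neuron marker scaling (-0.34), without L3-L5 DRG library 3 (-0.49) and without T10-L1 DRG library 3 (-0.20; range -0.49 to 0.76), and *Cacna2d2* with neuron marker scaling (-0.15). In the other 5 pairs 24 of 43 fitted values kept 1 sign. Members called stayed at 0 except for 1, *Cacna1i*, with DESeq2 in L3-L5 against T10-L1 DRG and in TG against L3-L5 DRG, and without the 3 libraries with few genes detected (TG 1, NG/JG 2, NG/JG 4) in TG against L3-L5 DRG and among the 4 ganglia. Leaving out 1 library gave 0 to 1 members in TG against L3-L5 DRG and 0 in the rest. The 1 came without TG library 1, the only 1 of those 3 libraries in this pair, so it is the same fit and not a further result. The cause was not tested.

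Genes called by edgeR were 0 for L3-L5 against T10-L1 DRG, 4 for NG/JG against T10-L1 DRG, 0 for NG/JG against L3-L5 DRG, 758 for TG against T10-L1 DRG, 0 for TG against L3-L5 DRG, 6 for TG against NG/JG and 429 among the 4 ganglia. In that order DESeq2 called 78, 913, 819, 2199, 1612, 856 and 1869. From the second on, no filter gave 9, 2, 427, 39, 56 and 241. All libraries in 1 fit gave 54, 83, 238, 206 and 484 for the second to the sixth. Without the 3 libraries with few genes detected there were 7 for NG/JG against T10-L1 DRG, 3583, 2038 and 1038 for TG against T10-L1 DRG, L3-L5 DRG and NG/JG, and 2143 among the 4 ganglia. Without L3-L5 DRG 4 and T10-L1 DRG 1 there were 2, 2 and 0 for NG/JG against T10-L1 DRG, NG/JG against L3-L5 DRG and TG against T10-L1 DRG, and 232 among the 4. Neuron marker scaling gave 0 for TG against T10-L1 DRG and 1 for TG against NG/JG. Leaving out 1 library gave 1 to 5, 0 to 2, 0 to 3583, 0 to 2038, 1 to 325 and 33 to 1035 from the second on, the last 4 highest without TG library 1. The exclusions of several libraries and the neuron marker scaling were chosen after seeing the data. In a pair that holds only 1 of the libraries excluded together, the exclusion is the same fit as leaving out that library.

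Whether same-numbered libraries share mice was not given in the sources used here, and the numbers were not taken as pairs, since deviations of same-numbered libraries correlated above 0.1 in 6 of 24 cases (-0.1212 to 0.1969). A library matched its own number best in 11 of 24 cases, where chance gives 6, and in 4 of 4 between NG/JG and L3-L5 DRG, which is a hint from the data and not from the design. With the replicate block 0 genes were called in NG/JG against T10-L1 DRG and 0 in TG against T10-L1 DRG, 1 in TG against NG/JG and 184 among the 4 ganglia. With the longest transcript as length, *Cacna1a* had 1.563 RPKM in TG and 1.571 in L3-L5 DRG. Depth leaves a member with 3 or fewer reads, as *Cacna1i* in 8 of 16 libraries, without a usable level.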
